A study of Homo sapiens with 6 samples.

Results

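The 54 genes described here run the cell division cycle, and they were measured in MDA-MB-231 cells, a basal-like human breast cancer line, on Illumina expression arrays. They were taken as all probes annotated to a named list of 54 genes, out of 20045 genes on the array, and were divided into 19 genes of the G1/S transition and DNA replication and 35 genes of G2/M and mitosis. The list was drawn up with earlier results of these arrays known, but no measured value decides membership. The array carried 80 probes for them, of which 78 were above background on at least 2 of the 6 arrays. All 54 genes could be tested, and 53 were above background on all 6 arrays. The exception was CCNE2, which was above background on 1 control array and 1 DICER1-sh array.

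A dividing cell first commits to S phase, when cyclin E with CDK2 phosphorylates the retinoblastoma protein and frees E2F factors to switch on the replication genes. Origins are licensed by CDC6, CDT1 and the MCM helicase, and DNA is copied with the PCNA clamp from nucleotides that ribonucleotide reductase supplies. Cyclin A and cyclin B with CDK1 then drive entry into mitosis, where the Aurora, PLK1 and BUB1 kinases, kinesins and the anaphase-promoting complex separate the chromosomes. Most of the mitotic genes are transcribed late in the cycle, after the DREAM repressor complex gives way to B-MYB and FOXM1. Cultured tumour cells divide all the time, so these transcripts are abundant in them, and several genes of the module, CDC25A and CCNE1 among them, have published miRNA binding sites.

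The design asked which mRNAs respond when miRNA synthesis is inhibited. The 3 groups were control cells, cells that stably carry a hairpin RNA against DICER1 (DICER1-sh) and cells that carry one against DROSHA (DROSHA-sh), each with 2 arrays. All cells were untreated and grown in the same serum-containing medium. DROSHA cuts the miRNA hairpin out of its primary transcript in the nucleus, and DICER1 cuts that hairpin into the mature miRNA in the cytoplasm. The labels name 1 hairpin target per knockdown and do not say whether the lines are clones or pools or whether the control carried a hairpin of its own. Nothing in them tells separate cultures from repeat arrays of 1 culture. All p-values here therefore take the spread between the arrays at hand, possibly a technical one, as their error.

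The targeted transcripts were checked first. DICER1 stood at log2 intensities of 10.55 and 9.36 on the control arrays, 8.41 and 8.66 on the DICER1-sh arrays and 10.36 and 10.27 on the DROSHA-sh arrays. DROSHA stood at 11.58 and 10.91 in control, 11.40 and 10.81 in DICER1-sh and 9.00 and 8.98 in DROSHA-sh. Each targeted transcript was therefore lowest on both arrays of its own knockdown. Between 42.0% and 44.4% of probes were above background on an array, all 7 markers of MDA-MB-231 were above background on all 6 arrays, and the luminal genes ESR1, PGR, FOXA1, CDH1 and TFF1 had no probe that passed the filter. The other 6 of 11 luminal markers were tested, with a summed intensity of 6335 to 9019 in control, 7188 to 11103 in DICER1-sh and 10004 to 10253 in DROSHA-sh. In DROSHA-sh 5 of them stood above control (median 0.37, 0 past the test), and their part in the results was not tested. Of 8 fibroblast and 7 blood cell markers, 2 and 3 passed it. The number of arrays limits the precision of all that follows.

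The promoters of the module carry the motifs through which its genes are known to be regulated, and the ones shown belong to genes that the results turn on. Promoter windows of RefSeq (build GRCh38.p14, 250 bases before to 50 after a gene's start) matched 44 of the 54 genes, with 59 windows. On either strand, 21 of 38 windows of the G2/M genes (55.3%) held TTTGAA, the cell cycle genes homology region bound by the MuvB core of the DREAM complex, as did 1 of 21 windows of the G1/S genes (4.76%) and 15.2% of all 35116 windows. The letters CCAAT, which NF-Y binds, were in 81.6% of the G2/M windows and 76.2% of the G1/S windows, against 34.6% of all windows. One of 4 E2F forms (TTTCCCGC, TTTCGCGC, TTTGCCGC or TTTGGCGC) was in 52.4% of the G1/S windows, 10.5% of the G2/M windows and 3.31% of all windows. A match is a description of letters and not a shown binding site. The 250 bases before the start are printed 5′ to 3′ for 5 genes, with matches to these motifs on either strand in capitals. KIF11 (chr10:92592880-92593129, plus strand), CDK1 (chr10:60778081-60778330, plus strand, the first of 2 windows) and CKS2 (chr9:89310945-89311194, plus strand) show the mitotic pair of TTTGAA and CCAAT. MCM6 (chr2:135876444-135876693, minus strand) and CDC25A (chr3:48188418-48188667, minus strand) show E2F forms beside CCAAT, and in MCM6 overlapping E2F forms run together in 2 places.
KIF11: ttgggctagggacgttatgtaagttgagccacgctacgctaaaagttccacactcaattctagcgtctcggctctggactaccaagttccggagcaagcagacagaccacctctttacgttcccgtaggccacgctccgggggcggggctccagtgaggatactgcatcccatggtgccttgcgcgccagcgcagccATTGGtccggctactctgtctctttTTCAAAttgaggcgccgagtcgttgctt
CDK1: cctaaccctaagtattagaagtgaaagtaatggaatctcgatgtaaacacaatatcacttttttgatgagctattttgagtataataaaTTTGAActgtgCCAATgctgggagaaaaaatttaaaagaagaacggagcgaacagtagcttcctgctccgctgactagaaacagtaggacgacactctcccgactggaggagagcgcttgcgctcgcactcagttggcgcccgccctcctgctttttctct
CKS2: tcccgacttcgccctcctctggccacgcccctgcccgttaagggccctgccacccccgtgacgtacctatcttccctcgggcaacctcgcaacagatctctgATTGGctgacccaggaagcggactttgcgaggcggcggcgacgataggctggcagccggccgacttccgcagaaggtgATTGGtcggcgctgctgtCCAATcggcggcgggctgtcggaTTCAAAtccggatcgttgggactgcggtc
MCM6: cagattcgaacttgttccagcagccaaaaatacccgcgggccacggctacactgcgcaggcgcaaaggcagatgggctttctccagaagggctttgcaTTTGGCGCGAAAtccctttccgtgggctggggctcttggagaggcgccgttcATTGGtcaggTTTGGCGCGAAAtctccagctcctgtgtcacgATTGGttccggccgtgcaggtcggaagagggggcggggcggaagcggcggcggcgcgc
CDC25A: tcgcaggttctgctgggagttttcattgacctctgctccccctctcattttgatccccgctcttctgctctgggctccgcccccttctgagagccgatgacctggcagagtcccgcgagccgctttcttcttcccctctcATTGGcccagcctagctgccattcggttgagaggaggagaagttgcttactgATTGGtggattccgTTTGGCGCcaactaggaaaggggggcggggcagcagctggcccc

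Before the groups are compared, the 2 arrays within each group have to be, since those of control and of DICER1-sh stood apart. Across the 54 genes the median size of the difference between arrays was 0.63 on the log2 scale within control, 0.32 within DICER1-sh and 0.11 within DROSHA-sh. Over all 17790 tested features it was 0.51, 0.39 and 0.15. In control, 37 of the 54 genes were lower on array 2 than on array 1, with a median difference of -0.32. The median difference was -0.03 for the G1/S genes and -0.32 for the G2/M genes. Scaling the arrays to equal medians instead put these at -0.29 and -0.56. Within DICER1-sh the median was -0.003, with 27 genes lower on array 2, and within DROSHA-sh it was 0.01, with 25 lower.

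The control and DICER1-sh pairs ran in opposite directions. Of the 54 genes, 38 had opposite signs in these pairs, 70.4% against 71.8% of all features, so the crossing is a property of the arrays as a whole. Across the 54 genes Pearson's r between the control and DICER1-sh differences was -0.81, a description over genes measured on the same 4 arrays, which are no replicates of each other. Between the control and DROSHA-sh differences it was 0.11. The genes with the widest gaps were CCNE2 and RRM2, both high on control 1 and DICER1-sh 2. Respiratory chain genes and histone genes, lists that also separate these arrays, stood a median of 1.08 and 0.97 higher on control 2 than on control 1, and 0.56 and 1.18 higher in DROSHA-sh than in control. Their part in the differences below was not tested.

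**Figure D1:**
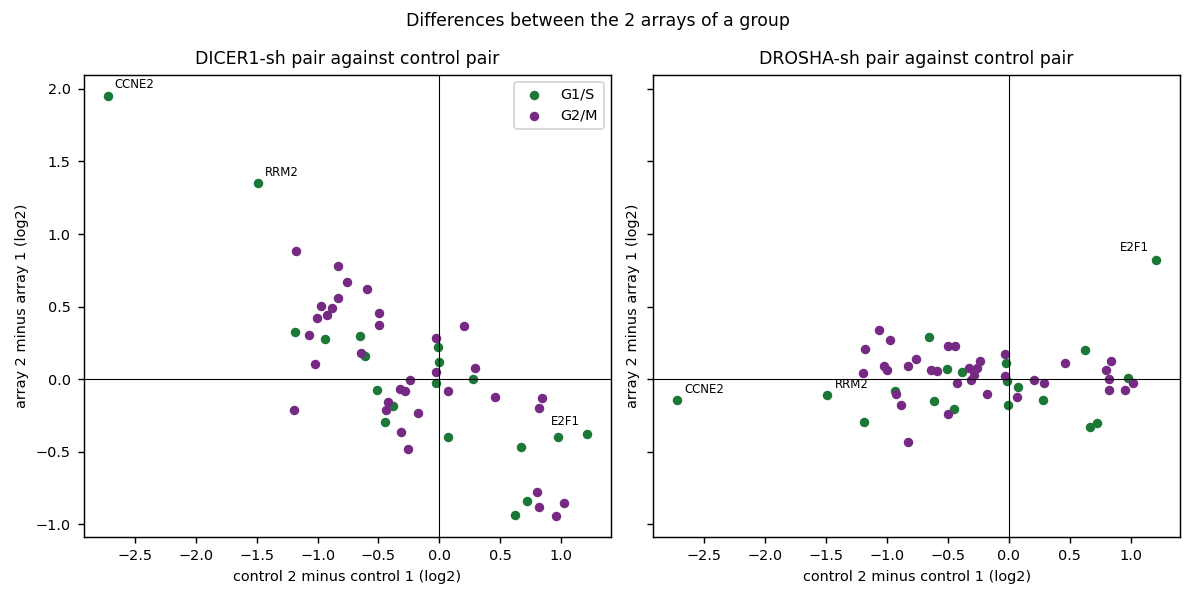
Each point is 1 of the 54 genes, with the log2 difference between control arrays 2 and 1 on the horizontal axis and that between the DICER1-sh arrays (left) or the DROSHA-sh arrays (right) on the vertical axis. In the left panel the points run from upper left to lower right (r = -0.81), and in the right panel the median size of the vertical difference is 0.11.

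Along this crossing the genes fall into sets by sign. There were 24 genes higher on control 1 and on DICER1-sh 2, among them CDK1, KIF11, CENPF, TOP2A, RRM1, RRM2, MCM4 and MCM6. In all 24 the DROSHA-sh mean lay below control, with a median difference of -0.53 (79.4% and -0.29 over all 5778 features of this pattern). In 22 it lay below the DICER1-sh mean, with a median of -0.33 (58.2% and -0.06 over those features). Another 14 genes were higher on control 2 and DICER1-sh 1, among them CDC25A, CDC25B, MCM2, MCM5, FOXM1, AURKB, UBE2C and MKI67. Of those, 3 lay lower in DROSHA-sh than in control, with a median of 0.24 (20.6% and 0.28 over all 6987 such features). Of the same 14, 10 lay lower in DROSHA-sh than in DICER1-sh, with a median of -0.09 (42.0% and 0.05 over those features). A further 13 genes were higher on array 1 of both groups. All 13 lay lower in DROSHA-sh than in control, with a median of -0.33 (57.7% and -0.06 over all 2698 such features). The remaining 3, TYMS, CKS1B and CENPA, were higher on array 2 of both. The sets and the differences from control are built on the same control arrays, so their link is no independent observation. In the sets of 24, 14 and 13 genes the median against control had the same sign as over all features. For TYMS, CKS1B and CENPA the median was -0.05, against 0.10 over all features of that pattern.

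**Figure D2:**
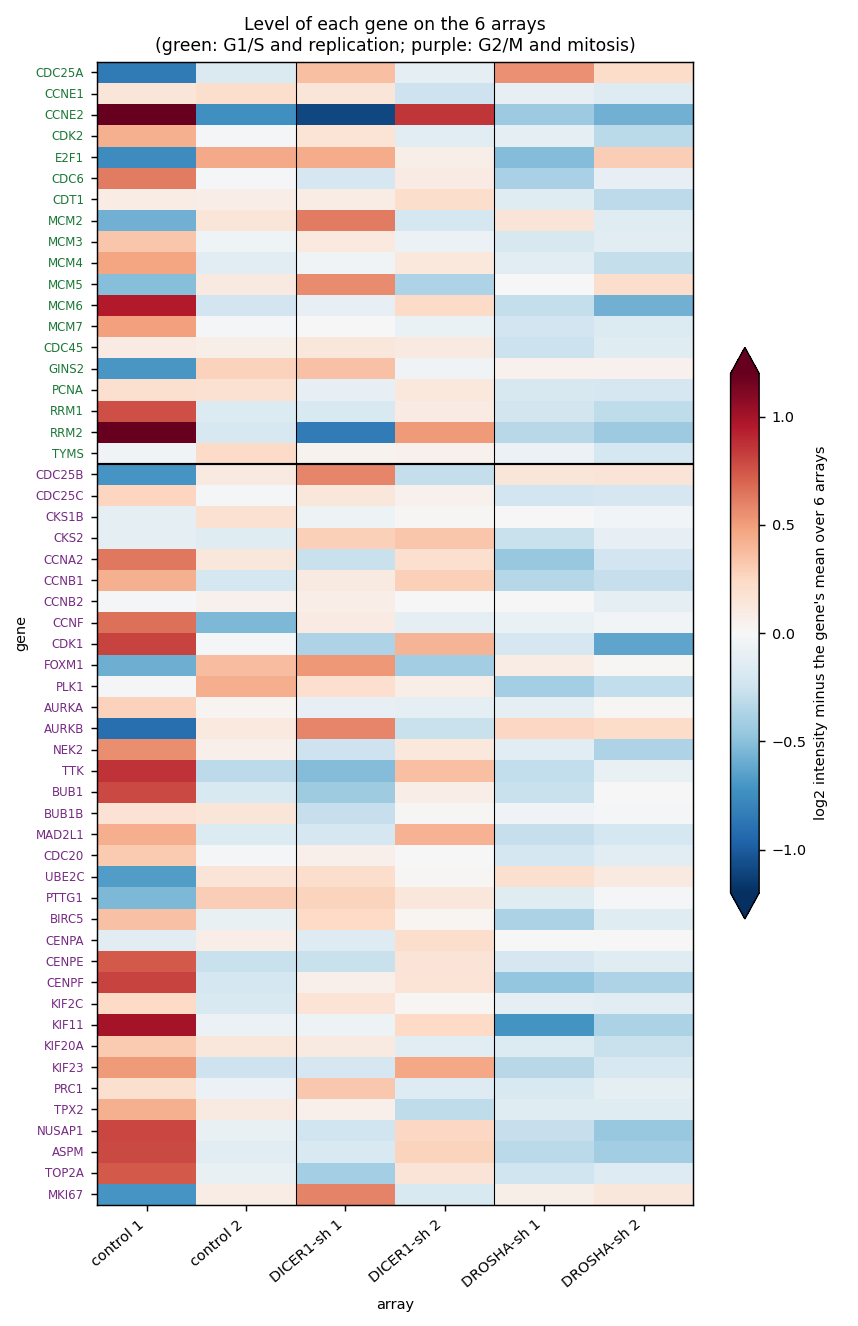
Rows are the 54 genes (green names G1/S and replication, purple names G2/M and mitosis) and columns the 6 arrays, with colour giving the log2 intensity minus the gene's mean over the arrays. Control 1 is dark red or dark blue for many genes, and the DROSHA-sh columns are pale blue in most rows.

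In DROSHA-sh cells most of the module stood below control. The DROSHA-sh mean was lower for 42 of 54 genes (77.8%), against 47.6% of all features, with a median log2 difference of -0.36 against 0.03 over all features. The G1/S genes had a median of -0.31, with 14 of 19 lower, and the G2/M genes a median of -0.38, with 28 of 35 lower. Both DROSHA-sh arrays lay below both control arrays for 32 genes (13 G1/S and 19 G2/M), and 17.7% of all features did so. They lay above both control arrays for 3, CDC25A, CDC25B and AURKB, where the background was 19.7%. In these cultures fewer cycling cells and less of a transcript per cell cannot be told apart.

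None of the 54 genes passed the test in that comparison. The smallest adjusted p in limma was 0.850, and 0% of all features passed. At an unadjusted p below 0.05, limma's fit of all features listed 2 of them (3.70%, near the 2.96% of all features), CDC25A on the higher side and KIF11 on the lower. Without control array 1 the G1/S median was -0.20 and the G2/M median -0.11. Without control array 2 they were -0.39 and -0.53. The count below 0 was 41 to 44 with any 1 array left out, but the genes differed: without control array 1, 13 of the 54 turned direction, 6 to above 0 and 7 to below it.

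In DICER1-sh cells the module stood nearer to control. The mean was lower for 34 of 54 genes, against 47.7% of all features, with medians of -0.13 for G1/S and -0.06 for G2/M genes and 0.02 for all features. Lower on both arrays than on either control array were 5 genes (PCNA, AURKA, BUB1B, KIF20A and TPX2), against 9.36% of features, and higher on both were 4 (CDC25A, CDT1, CDC45 and CKS2), against 10.9%. Without control array 2 the count lower without overlap was 33, against 37.1% of all features. Without control array 1 it was 11, against 25.0%. No gene passed limma's test (smallest adjusted p = 0.969, 0% of features called, and 0 genes at an unadjusted p below 0.05 against 1.93% of features). Without control array 1 the count below 0 was 22 of 54, 28 genes turned direction and both medians were 0.04. Without control array 2 the G2/M median was -0.31. This comparison and the one of DROSHA-sh with control share the control arrays.

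Set against DICER1-sh, which leaves the control arrays out of the means, DROSHA-sh was lower for 46 of 54 genes (85.2%), against 49.4% of all features. The median difference was -0.21 for G1/S genes, -0.20 for G2/M genes and 0.005 for all features. Leaving out any 1 array kept the G1/S median between -0.27 and -0.18 and the G2/M median between -0.21 and -0.19. Both DROSHA-sh arrays lay below both DICER1-sh arrays for 24 genes (9 G1/S and 15 G2/M), against 17.2% of features, and above both for 0 genes, against 16.2%. The group difference was larger than the gap within either pair for 17 genes, all lower in DROSHA-sh (31.5%, against 21.7% of features in either direction). No gene passed the test, where the smallest adjusted p in limma was 1.00 after rounding, 0.00562% of features were called, and 0 genes had an unadjusted p below 0.05, against 2.41% of features.

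Taking all 6 arrays together, both DROSHA-sh arrays were the lowest 2 for 20 of 54 genes (37.0%), against 7.81% of all features. The 9 G1/S genes among them were CDT1, MCM3, MCM4, MCM6, MCM7, CDC45, PCNA, RRM1 and TYMS. The 11 G2/M genes were CDC25C, CCNB1, PLK1, MAD2L1, CDC20, BIRC5, CENPF, KIF11, KIF20A, NUSAP1 and ASPM. The counts of this paragraph use the brightest probe of each gene. For MCM4 the margin was slight, with DROSHA-sh 1 at 11.356 and control 2 at 11.357. Another probe of MCM3 and of KIF11 also had both DROSHA-sh arrays lowest. The other probes of MCM4, MCM7, PCNA, CDC25C, MAD2L1, BIRC5 and NUSAP1 that were above background did not. No gene had both DROSHA-sh arrays highest, where 7.31% of features did. Both DICER1-sh arrays were highest for CDT1, CDC45 and CKS2 (4.63% of features) and lowest for 0 genes (4.14%). For CDT1 and CDC45 the lower DICER1-sh array was almost level with control 1. The control arrays were both lowest for CDC25A alone (5.17%) and both highest for PCNA, AURKA, BUB1B, KIF20A and TPX2 (4.11%). The second probes of CDC25A and AURKA did not show this.

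**Figure D3:**
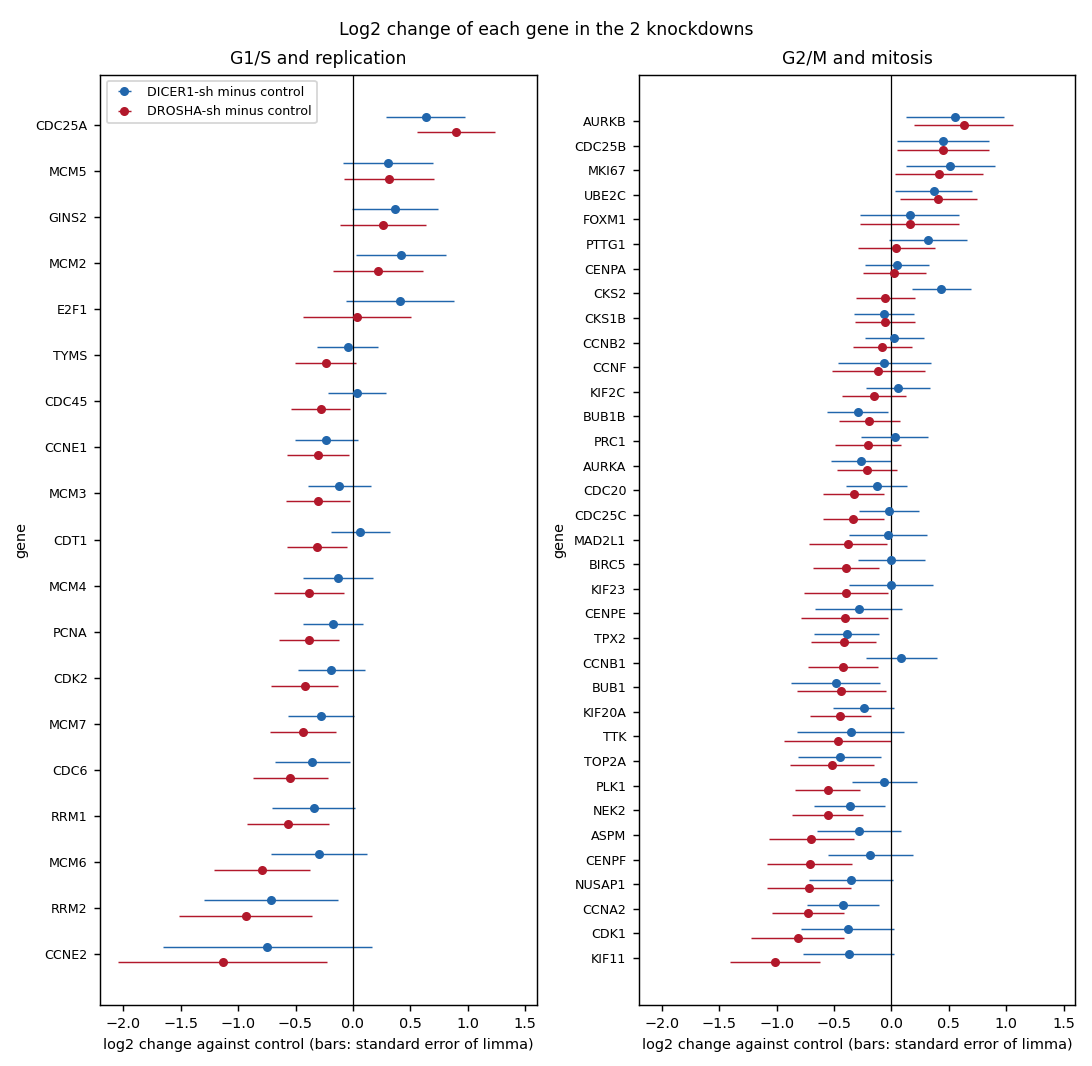
Points are each gene's log2 difference from control in DICER1-sh (blue) and DROSHA-sh (red), with the standard error of limma as bars, ordered by the DROSHA-sh value within each panel. Of the red points 42 of 54 lie below 0 and of the blue points 34, with CDC25A highest in the left panel and KIF11 lowest in the right.

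Among the genes that start S phase, CDC25A, the phosphatase that activates CDK2, stood higher in both knockdowns. Its log2 intensity was 9.83 and 10.50 on the control arrays, 11.03 and 10.57 on the DICER1-sh arrays and 11.23 and 10.90 on the DROSHA-sh arrays. All 4 knockdown arrays lay above both control arrays. The difference from control was 0.63 (SE 0.34) in DICER1-sh and 0.90 (SE 0.34, 1.86-fold, adjusted p = 0.850 in limma) in DROSHA-sh, and 0.56 in DROSHA-sh without control array 1. A second probe of CDC25A gave 0.43 and 0.34, but its groups overlapped, with control 1 at 7.80, DICER1-sh 1 at 7.63 and DROSHA-sh 1 at 7.67. Its paralogs, which act on CDK1 at mitotic entry, differed from it. CDC25B stood at 11.69 and 12.51 in control, 12.99 and 12.11 in DICER1-sh and 12.55 and 12.55 in DROSHA-sh. The DROSHA-sh arrays lay just above the higher control array, and the difference of 0.45 (SE 0.40) was 0.04 without control array 1. CDC25C stood at 9.55 and 9.27 in control, 9.43 and 9.35 in DICER1-sh and 9.07 and 9.09 in DROSHA-sh. Both DROSHA-sh arrays were below the other 4, by -0.33 (SE 0.26) from control and -0.31 from DICER1-sh, although its other 2 probes had differences from DICER1-sh above 0 (0.20 and 0.11).

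The E-type cyclins, partners of CDK2, gave less certain values. CCNE1 stood at 9.39 and 9.46 in control, 9.39 and 9.00 in DICER1-sh and 9.15 and 9.10 in DROSHA-sh, with DROSHA-sh lower by -0.30 (SE 0.27) without overlap. CCNE2 stood at 8.12 and 5.39 in control, 5.03 and 6.98 in DICER1-sh and 5.69 and 5.55 in DROSHA-sh. It was above background on control 1 and DICER1-sh 2 alone, and the groups overlapped. With DROSHA-sh set at background, its mean was 2.02-fold below control (adjusted p = 0.850 in limma for the measured difference). This fold is no lower limit, since control 2 was itself not above background and the fold rests on control 1 alone. Without control 1 the difference was 0.23 in the other direction. CDK2 itself was lower in DROSHA-sh without overlap (-0.42, SE 0.29). Its second probe gave -0.54 with overlap, since DROSHA-sh 1 at 8.68 lay above control 2 at 8.26. E2F1, the activator of replication genes, ranged from 7.05 to 8.26 over the control arrays and overlapped in all comparisons.

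The origin and helicase genes had a median difference of -0.31 in DROSHA-sh and -0.04 in DICER1-sh, with 7 and 5 of 10 below control. MCM6, a subunit of the replicative helicase, stood at 13.53 and 12.35 in control, 12.48 and 12.81 in DICER1-sh and 12.30 and 12.003 in DROSHA-sh. Both DROSHA-sh arrays were lowest, by -0.79 (SE 0.42) from control and -0.50 from DICER1-sh. The distance to control was -0.20 without control array 1, which lay far above the other 5. MCM3, MCM4 and MCM7 gave -0.31, -0.38 and -0.43 from control, each with both DROSHA-sh arrays lowest. For MCM4 this was almost a tie, with DROSHA-sh 1 at 11.356 and control 2 at 11.357, and its second probe gave 0.13. The sister subunits MCM2 and MCM5 gave 0.22 and 0.31, with overlapping groups, and GINS2 gave 0.26. Those higher values rest on control array 1, without which MCM2 gave -0.14, GINS2 -0.23 and MCM5 0.0026. Without it MCM3, MCM4 and MCM7 gave -0.11, -0.076 and -0.18. CDT1, the licensing factor, stood at 9.48 and 9.48 in control, 9.49 and 9.61 in DICER1-sh and 9.26 and 9.08 in DROSHA-sh. CDC45, which activates the helicase, stood at 12.15 and 12.12, 12.19 and 12.16, and 11.80 and 11.91 in the same order. In both genes DROSHA-sh was lowest, at -0.31 and -0.28 from control (SE 0.26 and 0.25), and the arrays of a group lay close together. DICER1-sh was highest by very little, at 0.06 and 0.04 from control (the same SE). For CDT1, DICER1-sh 1 read 9.486 and control 1 9.484, and for CDC45, DICER1-sh 2 read 12.161 and control 1 12.148. CDC6 gave -0.54 without overlap, and -0.22 without control array 1.

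All 4 genes of the replication clamp and nucleotide supply stood lower in both knockdowns. PCNA, the sliding clamp, stood at 13.33 and 13.31 in control, 13.03 and 13.26 in DICER1-sh and 12.94 and 12.93 in DROSHA-sh. Its 3 groups were separate, in the order control, DICER1-sh and DROSHA-sh, with -0.38 (SE 0.26) between DROSHA-sh and control. RRM2, the subunit of ribonucleotide reductase that limits its activity, stood at 11.59 and 10.10 in control, 9.45 and 10.80 in DICER1-sh and 9.96 and 9.85 in DROSHA-sh. The DROSHA-sh values lay below both control arrays but between the DICER1-sh arrays. The difference of -0.94 (SE 0.58) was -0.19 without control array 1. RRM1, the large subunit, and TYMS, thymidylate synthase, gave -0.57 and -0.24 with both DROSHA-sh arrays lowest, and RRM1 gave -0.099 without control array 1.

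Among the genes of mitotic entry, CKS2 had both DICER1-sh arrays above the other 4. This gene, whose product is a small subunit that binds CDK1, stood at 13.95 and 13.92 in control, 14.35 and 14.40 in DICER1-sh and 13.80 and 13.97 in DROSHA-sh. DICER1-sh was higher than control by 0.44 (SE 0.26, adjusted p = 0.969 in limma) and DROSHA-sh lower than DICER1-sh by -0.49, while control and DROSHA-sh overlapped. Its second probe gave 0.26 and -0.37, but there DICER1-sh 2 (13.60) lay below control 2 (13.64). The paralog CKS1B, also a subunit of the SCF-SKP2 ubiquitin ligase, stood at 14.22 and 14.51 in control, 14.26 and 14.33 in DICER1-sh and 14.32 and 14.29 in DROSHA-sh. The groups overlapped, and its probes disagreed, at -0.05 and 0.30 in DROSHA-sh against control.

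CDK1, the mitotic kinase, stood at 13.48 and 12.65 in control, 12.29 and 13.07 in DICER1-sh and 12.47 and 12.03 in DROSHA-sh. Both DROSHA-sh arrays were below control, by -0.81 (SE 0.41), and by -0.40 without control array 1. CCNA2, cyclin A, stood at 13.08 and 12.58 in control, 12.18 and 12.63 in DICER1-sh and 11.99 and 12.22 in DROSHA-sh. The difference of -0.72 (SE 0.31) was larger than the gap within the control pair. CCNB1, cyclin B, stood at 12.38 and 11.74 in control, 12.05 and 12.23 in DICER1-sh and 11.60 and 11.67 in DROSHA-sh. Its DROSHA-sh arrays were the lowest 2, and it was the difference from DICER1-sh, -0.51 (SE 0.31), that exceeded both pair gaps. CCNB2, CCNF and FOXM1 gave -0.08, -0.11 and 0.16 in DROSHA-sh against control, with overlapping groups, and CCNF gave 0.48 without control array 1.

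The mitotic kinases split. PLK1 stood at 8.52 and 8.98 in control, 8.75 and 8.63 in DICER1-sh and 8.14 and 8.26 in DROSHA-sh. Both DROSHA-sh arrays were below the other 4, by -0.55 (SE 0.28) from control and -0.49 (SE 0.28) from DICER1-sh. AURKB, the kinase of the chromosomal passenger complex, stood at 10.41 and 11.43 in control, 11.90 and 11.05 in DICER1-sh and 11.56 and 11.54 in DROSHA-sh. Here DROSHA-sh was the higher group, by 0.63 (SE 0.43) and by 0.12 without control array 1. AURKA, the spindle pole kinase, stood at 13.42 and 13.18 in control, 13.04 and 13.03 in DICER1-sh and 13.02 and 13.15 in DROSHA-sh. Both knockdowns were below control without overlap, by -0.26 and -0.21 (SE 0.26), DROSHA-sh 2 only narrowly. On the second probe of AURKA the DROSHA-sh and control groups overlapped, with DROSHA-sh 2 at 12.93 and control 2 at 12.89. NEK2 gave -0.56 in DROSHA-sh without overlap, and TTK -0.47 with overlap, which was 0.12 without control array 1.

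Of the 6 genes of the spindle checkpoint and mitotic exit, 4 stood lower in DROSHA-sh than in control. BUB1 stood at 12.91 and 11.94 in control, 11.69 and 12.19 in DICER1-sh and 11.85 and 12.12 in DROSHA-sh. The groups overlapped, and the DICER1-sh difference of -0.48 (SE 0.39) was 0.002 without control array 1. BUB1B, its checkpoint partner, stood at 9.86 and 9.83 in control, 9.41 and 9.69 in DICER1-sh and 9.64 and 9.67 in DROSHA-sh. Both knockdowns were below control without overlap, by -0.29 and -0.19 (SE 0.26). UBE2C, the ubiquitin-conjugating enzyme of the anaphase-promoting complex, stood at 13.00 and 13.82 in control, 13.88 and 13.68 in DICER1-sh and 13.86 and 13.78 in DROSHA-sh. Only control 1 stood apart, and the difference of 0.41 (SE 0.34) was -0.001 without it. MAD2L1 and CDC20 gave -0.38 and -0.33 with both DROSHA-sh arrays lowest, and PTTG1, securin, gave 0.04.

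At centromeres and chromosomes, CENPF stood at 12.67 and 11.64 in control, 11.92 and 12.02 in DICER1-sh and 11.40 and 11.49 in DROSHA-sh. Both DROSHA-sh arrays were lowest, by -0.71 (SE 0.37) from control and -0.53 (SE 0.37) from DICER1-sh, of which the first was -0.20 without control array 1 and the second -0.58 to -0.47 with any 1 array left out. TOP2A, the topoisomerase that untangles sister chromatids, stood at 13.94 and 13.11 in control, 12.79 and 13.35 in DICER1-sh and 12.96 and 13.05 in DROSHA-sh. MKI67, the proliferation marker, stood at 7.59 and 8.39 in control, 8.90 and 8.12 in DICER1-sh and 8.37 and 8.44 in DROSHA-sh. TOP2A and MKI67 lay on opposite sides of control, at -0.52 and 0.41 in DROSHA-sh (SE 0.36 and 0.39), and at -0.10 and 0.013 without control array 1. BIRC5, survivin, gave -0.39 with both DROSHA-sh arrays lowest, CENPE -0.41 and CENPA 0.02, both with overlap.

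All 8 kinesins and spindle genes stood below control in DROSHA-sh, with a median of -0.43 (-0.26 in DICER1-sh, 6 of 8 below). All 8 were also lower on control 2 than on control 1, with a median difference of -0.59. Without control array 1, KIF2C turned to above control in DROSHA-sh. KIF11, the motor that pushes the spindle poles apart, stood at 12.21 and 11.14 in control, 11.15 and 11.45 in DICER1-sh and 10.49 and 10.83 in DROSHA-sh. Both DROSHA-sh arrays were below the other 4. The difference was -1.02 from control (SE 0.39, 2.02-fold lower, adjusted p = 0.850 in limma) and -0.64 from DICER1-sh (SE 0.39). It was -0.48 from control without control array 1 and -1.55 without control array 2. ASPM, NUSAP1 and KIF20A gave -0.70, -0.72 and -0.44, each with both DROSHA-sh arrays lowest, and ASPM and NUSAP1 gave -0.24 and -0.27 without control array 1. TPX2 gave -0.39 in DICER1-sh and -0.42 in DROSHA-sh, both without overlap, and KIF2C, KIF23 and PRC1 gave -0.15, -0.39 and -0.20 in DROSHA-sh.

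**Figure D4:**
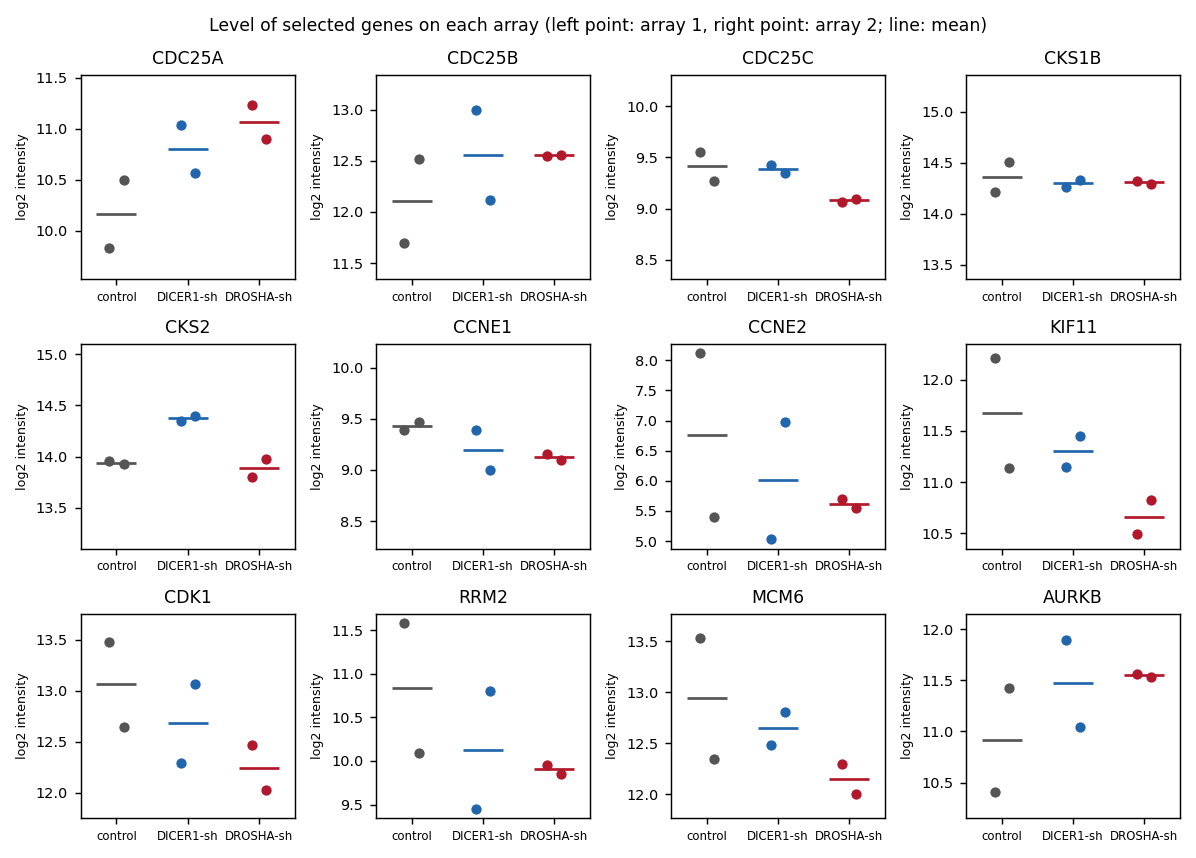
Each panel shows the log2 intensity of 1 gene on the 6 arrays, with array 1 on the left and array 2 on the right of each group and a line at the group mean. The vertical axes differ in range between panels and do not start at 0. CDC25A lies above control on all 4 knockdown arrays, CKS2 is highest in DICER1-sh, and KIF11 is lowest in DROSHA-sh.

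The difference between DROSHA-sh and control was larger than the gap within either pair for 13 genes (24.1%, against 18.8% of all features). Of these 12 were lower, namely CCNE1, CDT1, CDC45, PCNA, CDC25C, CCNA2, PLK1, NEK2, BUB1B, CDC20, KIF20A and TPX2, and CDC25A was higher. Between DICER1-sh and control it was 6 genes (11.1%, against 11.7%). Read against the promoter motifs, the 19 mitotic genes with TTTGAA had a median DROSHA-sh difference from control of -0.33 and the 10 without it -0.41. The G1/S genes with an E2F form had a median of -0.31 over 11 genes, and those without -0.44 over 4.

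Of the 22 genes with several probes above background, the probes of CKS1B, MCM3 and MCM4 had opposite signs in DICER1-sh against control, and those of CKS1B and MCM4 in DROSHA-sh against control. In DROSHA-sh against DICER1-sh those of CDC25A, CDC25C, CENPA, CENPE, MCM7 and PCNA did. The widest disagreement was in MCM7, whose brightest probe gave -0.16 and a second probe 1.33. That 1.33 rests on DICER1-sh 1, where the second probe read 5.90, against 8.78 to 9.38 on the other arrays. The values above are those of the brightest probe.

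Other genes of the same pathways, listed from textbook membership, lay on the same side. Of 41 other replication genes tested, 33 were below control in DROSHA-sh, with a median of -0.21, and of 58 other mitosis genes 41 were, with a median of -0.29. Neither list had a gene past the test in either direction in any comparison. In DICER1-sh 24 of 41 and 37 of 58 were below control, with medians of -0.03 and -0.11. The lowest replication genes in DROSHA-sh were E2F8 and E2F2 (-0.62 and -0.61, SE 0.27 and 0.26) and the highest TK1 and RPA3 (0.29 and 0.25). The lowest mitosis gene was CIT, citron kinase of cytokinesis, which stood at 8.58 and 8.02 in control, 8.18 and 8.27 in DICER1-sh and 6.75 and 7.22 in DROSHA-sh. Both its DROSHA-sh arrays lay far below the other 4, by -1.31 from control and -1.24 from DICER1-sh (SE 0.32), with an adjusted p of 0.850 and 1.00 in limma.

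The brakes of the cycle were mixed, with 5 of 11 tested genes below control in DROSHA-sh and a median of 0.03. CDKN1A, the p21 inhibitor of cyclin-dependent kinases and a published miRNA target, stood at 11.05 and 11.12 in control, 11.65 and 11.02 in DICER1-sh and 12.13 and 12.04 in DROSHA-sh. Both DROSHA-sh arrays lay above the other 4, by 1.00 (SE 0.30, adjusted p = 0.850 in limma) from control. RB1, the retinoblastoma protein, stood at 10.35 and 8.21 in control, 7.83 and 9.14 in DICER1-sh and 8.31 and 8.22 in DROSHA-sh, so that its -1.01 (SE 0.70) rests on control 1. Among the 5 D-type cyclin and kinase genes CCND2 gave 0.85 (SE 0.29) in DICER1-sh and 0.66 in DROSHA-sh, and CCND1 gave -0.11 and -0.18. Of 15 published miRNA targets in the cycle, a list that overlaps these, 10 lay below control in DROSHA-sh and 8 in DICER1-sh, with medians of -0.15 and -0.03. None of these genes passed the test in any comparison.

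**Figure D5:**
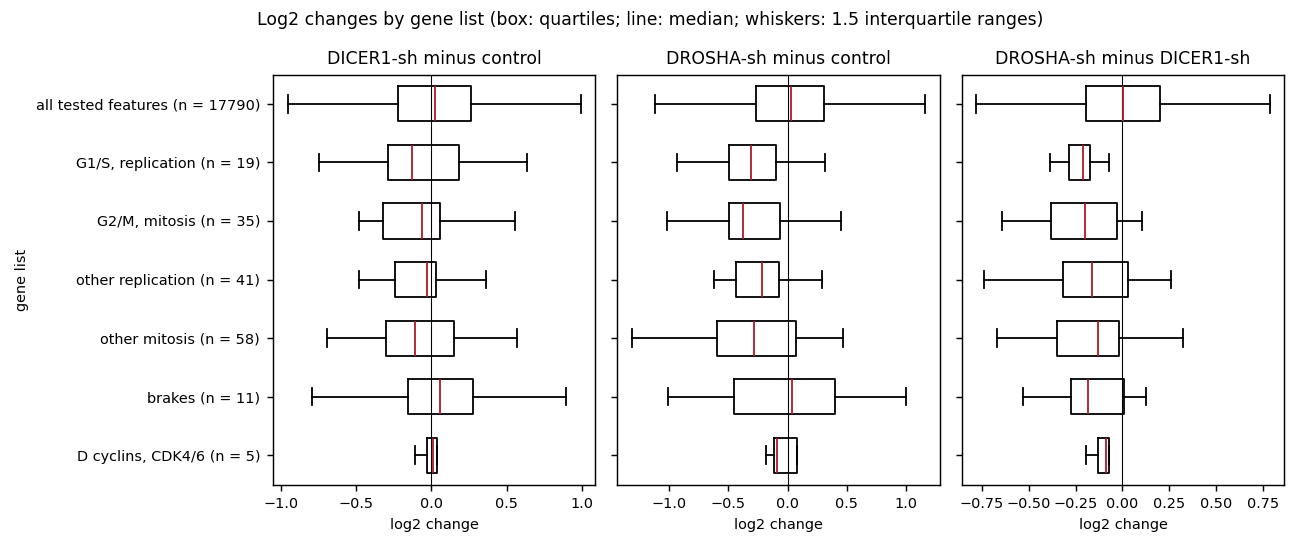
Boxes give the quartiles and median of the log2 differences over the genes of each list in the 3 comparisons, with whiskers to 1.5 interquartile ranges and outlying genes not drawn. In the DROSHA-sh panels the medians of both parts of the module and of the other replication and mitosis genes lie below 0, against 0.03 and 0.005 over all tested features.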

How the data were processed

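Total RNA of 6 cell samples was hybridised as biotin-labelled cRNA to Illumina arrays. The deposited intensity values are mean bead signals per probe, unscaled, per the file headers, which also name a detection p-value for each. A second table of intensity values that the authors deposited holds the same arrays after background subtraction, with nearly equal quartiles. The submitters' processing notes name GenomeStudio, and its settings are not given in the sources used here.

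Intensities were corrected with normexp through the detection p-values (offset 16), quantile normalized and put on the log2 scale with limma 3.58.1 in R 4.3.3. Probes with a detection p-value below 0.05 on at least 2 of 6 arrays were kept (22091 of 47319). The brightest kept probe stood for a gene, giving 17790 features, 12083 of them named genes. One fit of all 3 groups was made with lmFit and eBayes (3 residual and 4.34 prior degrees of freedom), with Benjamini-Hochberg adjustment over all features and a threshold of 0.05. The script was tested on simulated data. Groups and replicate numbers come from the labels.

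The members and lists were chosen with earlier results of these data known, and the 8 roles used to order them after their values were seen. Values on every array are given for the CDC25, CKS and cyclin E paralogs and the 5 highest and 5 lowest members in each comparison, and for CDT1, CDC45 and PCNA, which were chosen after their values were seen. Of the other pathway lists, at most the 2 highest and 2 lowest genes in DROSHA-sh against control are named, beside CDKN1A. The fold of CCNE2 from background sets the brighter group's mean log2 value against, per array of the group not above background, the higher of the lowest detected signal and the probe's own. The tables of motif and promoter sequence are from RefSeq. Alternatives to the background correction, normalization, filter, probe choice, array weights and pairing were tried, as was leaving out each array.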

Additional observations from a re-analysis of the deposited data

How the results depend on the processing

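No member passed the test under any alternative run on all 6 arrays. For the members named in each comparison, 606 alternative values kept their direction and 21 did not. Most of these members were picked for their high or low change, which favours a kept direction, and the other members are not in this count. Other scaling moved few of the results. Scaling to equal medians put the control pair's medians at -0.29 (G1/S) and -0.56 (G2/M), the DICER1-sh genes lower without overlap at 3, CKS1B at 0.13 in both knockdowns and CKS2 at 0.12 in DROSHA-sh. The mean of a gene's probes put CKS1B at 0.11 in DICER1-sh and 0.13 in DROSHA-sh. Over all features, DROSHA-sh against control had 1 call from the authors' deposited normalized values, from cyclic loess and from median scaling, in place of 0. DROSHA-sh against DICER1-sh had 0 calls without background correction, with normexp at an offset of 50, with no probe filter, with probes detected on all 6 arrays and with the replicate number as a block, and 5 with array weights, in place of 1.

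The replicate numbers do not pair the samples, since same-numbered arrays correlated at -0.63, -0.03 and 0.02 in their deviations from the group means, and the block changed no other count of calls. Crossing the numbers of control and DICER1-sh gave 6 calls in DROSHA-sh against control and 4 in DROSHA-sh against DICER1-sh. That crossing was chosen after the differences between these arrays were seen, and no label gives it. It takes that spread out of the error, so its calls decide nothing.

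Leaving out each array in turn gave 0 calls over all features in each comparison. In DICER1-sh against control the G1/S median ran from -0.20 to 0.037, the G2/M median from -0.31 to 0.040 and members below 0 from 22 to 36. Members lower without overlap ran from 5 to 33, a count that leaving out an array can raise but not lower. Over all features the share was 9.36% with all arrays, 25.0% without control 1 (11 members) and 37.1% without control 2 (33 members). In DROSHA-sh against control the medians ran from -0.39 to -0.20 (G1/S) and -0.53 to -0.11 (G2/M). In DROSHA-sh against DICER1-sh the members lower without overlap ran from 24 to 38, the latter without DICER1-sh 1. Over all features the share was 17.2% with all arrays. That count too can only rise when an array is left out, as can the share over all features. Without that share beside it, the 38 is no result about the members. Of all 54 members, 36, 15 and 23 turned direction with some array left out in DICER1-sh against control, DROSHA-sh against control and DROSHA-sh against DICER1-sh, a count chosen after seeing the data. Among the members named for each comparison, those that turned in DICER1-sh against control were CCNE2 (-2.11 to 0.61), RRM2 (-1.46 to 0.030), BUB1 (-0.97 to 0.0022), CDC25C (-0.16 to 0.12) and CKS1B (-0.21 to 0.080). In DROSHA-sh against control they were CCNE2 (-2.50 to 0.23), UBE2C (-0.0011 to 0.82), CKS1B (-0.20 to 0.090) and CKS2 (-0.14 to 0.034). In DROSHA-sh against DICER1-sh they were BUB1B (-0.040 to 0.24), AURKB (-0.35 to 0.50), AURKA (-0.012 to 0.11) and BUB1 (-0.21 to 0.30). In the comparisons with control, 28 and 13 members turned without control 1 and 7 and 1 without control 2 (DICER1-sh and DROSHA-sh). A lone array was taken to vary like the other groups. The causes were not tested. Genes near background, such as CCNE2, are limited by signal. The members lowest on both DROSHA-sh arrays numbered 15 to 27 over all settings. In the main setting they were 20, against 7.81% of all features. The 27 came without DICER1-sh 1, and leaving out an array cannot lower this count or the share over all features. Without the shares of their settings beside them, the 15 and the 27 are no result about the members.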
